A study of Mus musculus with 5 samples.

Results

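miR-223 and miR-142 are miRNA genes used chiefly by blood-forming cells, and the values given here are those of both mature arms of each hairpin, mmu-miR-223-3p, mmu-miR-223-5p, mmu-miR-142-3p and mmu-miR-142-5p. They were chosen by name, as every entry of the array that stands for the 3p or 5p arm of either gene, with control features left out. This gave 4 of the 1122 mouse miRNAs on the array. The study asked which miRNAs differ when dendritic cells meet flagellin, the protein of bacterial flagella that is sensed by TLR5. Bone marrow-derived dendritic cells (BMDCs) of C3H/HeJ mice, a strain that responds poorly to LPS because of a mutation in Tlr4, were grown with rmGM-CSF and rmIL-4 and sorted on magnetic beads as CD11c+ cells. They were then kept for 24 h with 100 ng/ml flagellin (FliC; 3 arrays) or with medium alone (mock; 2 arrays). Total RNA labelled with Cy3 was hybridised to a one-colour miRNA array, all 5 arrays lying on 1 slide, and the scanner software gave each miRNA a total gene signal, the summed brightness of those of its probes that were detected. The labels do not say that the samples came from separate mice or cultures, so the p-values measure only the spread between these samples, which may be technical.

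miRNAs are cut as short duplexes from hairpin transcripts, and usually 1 arm is kept by the silencing complex and pairs with mRNAs through its seed, bases 2 to 8. miR-223 is a gene of the granulocyte and monocyte lineage, where its 3p arm is the strand usually kept and restrains the growth of granulocyte precursors and inflammatory activation. miR-142 is expressed throughout the haematopoietic lineages, including dendritic cells, and both of its arms are known to be loaded and to repress targets.

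The mature sequences show what each probe had to detect and that the 4 arms carry 4 different seeds. They are given 5′ to 3′ with the seed in capitals, from RefSeq (GRCm38.p6), where all 4 were matched by name, the miR-142 arms under the name miR-142a.
mmu-miR-223-3p: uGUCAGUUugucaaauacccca
mmu-miR-223-5p: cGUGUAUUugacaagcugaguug
mmu-miR-142-3p: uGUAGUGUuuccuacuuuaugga
mmu-miR-142-5p: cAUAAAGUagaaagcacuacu
Their lengths were 22, 23, 23 and 21 nt, with a G+C content of 40.9%, 43.5%, 34.8% and 33.3%. Each of these seeds was found in 0 other mature miRNAs of the RefSeq table, and so in 0 of the 881 mouse miRNAs of the array that the table holds by name. Each arm therefore has a seed of its own among the miRNAs compared.

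The array reads each miRNA with probes that pair with it from its 3′ end and stop at different bases near its 5′ end. The longest probe of each arm is shown 5′ to 3′, with capitals for the bases by which it exceeds the shortest probe of the same arm, since the signals of the probes are compared further on.
miR-223-3p probe of 21 nt: tggggtatttgacaaactgaC
miR-223-5p probe of 17 nt: caactcagcttgtcaAA
miR-142-3p probe of 23 nt: tccataaagtaggaaacactacA
miR-142-5p probe of 19 nt: agtagtgctttctactttA
The 23 nt probe of miR-142-3p covers bases 1 to 23, the whole mature strand, while the 17 nt probe of miR-223-5p covers bases 7 to 23. In the coordinates of the deposited files (mm9), these probes map to chrX:93438224-93438244 for miR-223-3p, chrX:93438187-93438203 for miR-223-5p, chr11:87570406-87570427 for miR-142-3p and chr11:87570372-87570389 for miR-142-5p. The spans given for miR-223 are as long as the probes, and those for miR-142 hold 22 and 18 bases, 1 fewer than the probes of 23 and 19 nt. In the RefSeq annotation of GRCm38.p6, Mir223 lies within the span of the lncRNA gene F630028O10Rik, with the pseudogene Gm9051 before it and Vsig4 after it. Mir142 lies between Supt4a and Tspoap1 and overlaps Mir142b, a miRNA gene at the same place.

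miR-223-3p and both arms of miR-142 were detected on all 5 arrays, and miR-223-5p on 0 of them. Arrays held 292 to 317 detected mouse miRNAs, 277 of them shared by all 5, and the summed mouse signal ran from 181877 to 234545 units. The total gene signal of miR-223-3p was 3464, 3393 and 2499 units in flagellin replicates 1, 2 and 3 and 3118 and 2770 units in medium replicates 1 and 2. That placed it at rank 18, 19, 19, 18 and 18 among the mouse miRNAs of the same arrays, so its place in the order of signal was steady. It took 1.50%, 1.45% and 1.37% of the mouse total in the flagellin replicates and 1.35% and 1.35% in the medium replicates. An array signal also depends on how well each probe binds, so these ranks and shares are of signal and not of molecules.

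miR-142-3p was dimmer and far less steady. Its total gene signal was 1585, 2272 and 1040 units in flagellin replicates 1 to 3 and 2153 and 1644 units in the medium replicates, at ranks 32, 25, 33, 26 and 27. The arm took 0.684%, 0.969% and 0.572% of the mouse total in the flagellin replicates and 0.932% and 0.803% in the medium replicates. The highest and the lowest of these values thus both lay within the flagellin group. miR-142-5p gave 545, 914 and 375 units with flagellin and 644 and 505 units with medium, at ranks 55, 40, 58, 51 and 54. Its share was 0.235%, 0.390% and 0.206% in the flagellin replicates and 0.279% and 0.247% in the medium replicates, so flagellin replicate 2 was high and flagellin replicate 3 low for this arm too. Together the 3 detected arms made up 2.15% to 2.81% of the mouse signal of an array, while the 10 brightest miRNAs of each array held 55.1% to 58.5%.

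In the order of the mean total gene signal over the 5 arrays, miR-223-3p was at place 19, miR-142-3p at 27 and miR-142-5p at 52. Scaled to the 75th percentile of each array over the 277 miRNAs detected on all arrays, and on the log2 scale used from here on, miR-223-3p had a mean of 3.54 ± 0.062 (SD, n = 5). Its neighbours in the order were miR-3968 at 3.55 ± 0.21 and miR-5109 at 3.46 ± 0.15 (SD, n = 5 each), differences smaller than the spread of either neighbour. miR-142-3p, at 2.68 ± 0.28, stood between let-7i-5p at 2.78 ± 0.085 and miR-27b-3p at 2.59 ± 0.098 (SD, n = 5 each). miR-142-5p, at 1.13 ± 0.31, stood between miR-3096b-3p at 1.31 ± 0.14 and miR-20a-5p at 1.11 ± 0.097 (SD, n = 5 each). For both arms of miR-142 the distance to either neighbour was smaller than the arm's own SD.

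**Figure D1:**
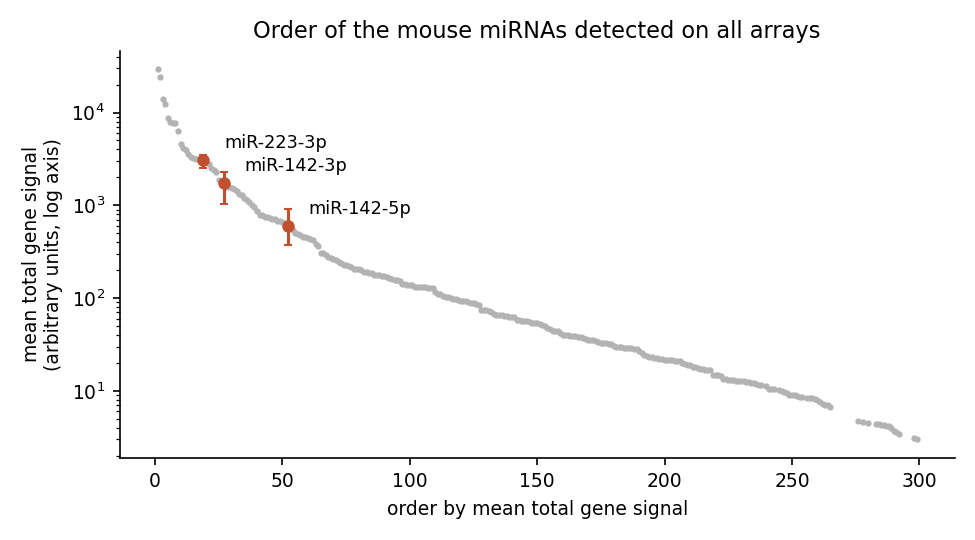
Mean total gene signal over the 5 arrays (arbitrary units, log axis) against its order, for the 277 mouse miRNAs detected on all arrays (grey points); red points are miR-223-3p, miR-142-3p and miR-142-5p, and their bars run from the lowest to the highest array. The arms stand at places 19, 27 and 52, and miR-142-3p spans 1040 to 2272 units.

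Flagellin was compared with medium first for miR-223-3p, the myeloid miRNA. Its scaled log2 values were 3.62, 3.53 and 3.57 in the flagellin replicates and 3.47 and 3.49 in the medium replicates. All 3 flagellin values lay above both medium values, by a small margin, as they did for 35 of the 307 miRNAs tested (11.4%; all 3 lay below both in 27, or 8.79%). The group means were 3.58 ± 0.045 (SD, n = 3) and 3.48 ± 0.019 (SD, n = 2), a log2 fold change of 0.096 (limma, 95% interval −0.092 to 0.28, adjusted p = 0.859 over the 307), which became −0.048 with quantile normalization. The interval corresponds to a ratio between 0.938 and 1.22. Of its share of the mouse total, the mean was 1.44% with flagellin and 1.35% with medium, with all 3 flagellin shares above both medium shares, as in 9.45% of the miRNAs tested. The difference of 0.0876 percentage points had p = 0.2 in an exact two-sided permutation test, where the 10 possible splits of the arrays allow no p below 0.1.

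miR-142-3p overlapped between the groups. Its scaled log2 values were 2.50, 2.95 and 2.30 in the flagellin replicates and 2.93 and 2.74 in the medium replicates, so flagellin replicate 2 was the highest of the 5 arrays and flagellin replicates 1 and 3 the lowest. The means were 2.58 ± 0.33 (SD, n = 3) and 2.84 ± 0.14 (SD, n = 2), and the log2 fold change was −0.25 (limma, 95% interval −0.83 to 0.33, adjusted p = 0.859). Leaving out flagellin replicate 2 gave −0.44 (limma's unadjusted p = 0.0327, adjusted p = 0.686; its adjusted p was 0.559 to 1 over all alternatives), and leaving out flagellin replicate 3 gave −0.11. Its share of the mouse total was 0.741 ± 0.205% with flagellin and 0.867 ± 0.0913% with medium (SD; exact two-sided permutation test, p = 0.5).

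miR-142-5p, the other arm of the same hairpin, overlapped as well. On the scaled log2 axis it stood at 0.96, 1.64 and 0.83 in the flagellin replicates and at 1.19 and 1.04 in the medium replicates, and flagellin replicate 2 stood above the other arrays by 0.45 or more. The means were 1.14 ± 0.44 (SD, n = 3) and 1.11 ± 0.11 (SD, n = 2), a log2 fold change of 0.029 (limma, 95% interval −0.70 to 0.76, adjusted p = 0.99). The sign turned to −0.22 without flagellin replicate 2, to −0.048 without medium replicate 2 and to −0.0078 with processed signals at the probe level. The share was 0.277 ± 0.0987% with flagellin and 0.263 ± 0.0227% with medium (SD; exact two-sided permutation test, p = 1).

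Of all 307 miRNAs tested with limma, 2 (0.651%) passed an adjusted p of 0.05 and 18 (5.86%) an unadjusted one, and miR-223-3p and the arms of miR-142 were in neither set. The intervals leave room for changes of unlike size. With the main scaling, the interval of miR-223-3p ends at a ratio of 1.22, whereas that of miR-142-3p runs from 0.561 to 1.26 and that of miR-142-5p from 0.616 to 1.69. With the 75th percentile taken over all mouse miRNAs the log2 fold change of miR-223-3p was 0.28, where the median of all tested miRNAs was 0.19. miR-223-5p, undetected throughout, was not tested. In RNA from bulk cultures such as these, fewer cells that hold a miRNA and less of it per cell cannot be told apart.

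**Figure D2:**
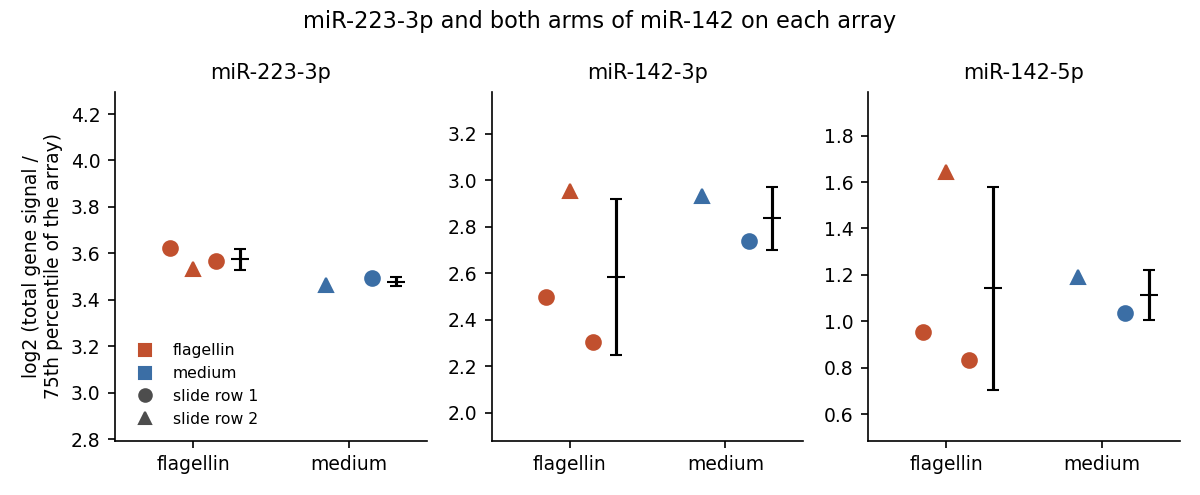
Log2 of the total gene signal over the array's 75th percentile, for miR-223-3p, miR-142-3p and miR-142-5p, in panels of equal height; each point is 1 array, triangles are arrays of slide row 2, and the black bars give the mean and SD of a group. The miR-223-3p points lie between 3.47 and 3.62, those of flagellin above those of medium (the mean difference is −0.048 with quantile normalization), while for miR-142 the flagellin points spread over 0.65 (3p) and 0.81 (5p) and enclose the medium points.

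The 3 miRNAs differed widely in how much they varied between arrays of the same group. The within-group SD of miR-223-3p was 0.039, the 4th smallest of the 277 miRNAs detected on all arrays. That of miR-142-3p was 0.28, the 37th largest, and that of miR-142-5p was 0.36, the 24th largest. Over the 5 arrays the scaled signal of miR-223-3p ranged over 1.12-fold, that of miR-142-3p over 1.57-fold and that of miR-142-5p over 1.75-fold. The error that the scanner software assigns to a total gene signal was 8.06% to 8.12% for miR-223-3p, 7.96% to 8.18% for miR-142-3p and 7.09% to 7.15% for miR-142-5p. This error varied little as a share of the signal, far less than the scatter of the repeated spots, which is given with the probes.

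The arrays on which miR-142 was high were those of 1 row of the slide. Flagellin replicate 2 and medium replicate 1 lay in row 2, and the other 3 arrays in row 1. Both arms of miR-142 were higher on the row 2 arrays than on every row 1 array, which held for 7 of the 277 miRNAs (2.53%), and miR-223-3p was not among them. With treatment in the same limma fit, row 2 exceeded row 1 by 0.40 for miR-142-3p (95% interval −0.0091 to 0.81, adjusted p = 0.927) and by 0.49 for miR-142-5p (95% interval −0.034 to 1.02, adjusted p = 0.927). For miR-223-3p the row difference was −0.047 (95% interval −0.28 to 0.18). In that fit 0 of the 307 miRNAs had an adjusted p under 0.05 for row and 6 an unadjusted p under 0.05, so the row difference did not pass the test for either arm.

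Within a row, flagellin and medium can be set side by side, with 2 arrays against 1 in row 1 and 1 against 1 in row 2. For miR-142-3p, flagellin minus medium was −0.34 in row 1 and 0.023 in row 2 on the log2 scale. For miR-142-5p the difference was −0.14 in row 1 and 0.45 in row 2, and so of opposite sign. For miR-223-3p it was 0.10 and 0.068. With row as a block, limma gave a log2 fold change of −0.18 for miR-142-3p, 0.11 for miR-142-5p and 0.088 for miR-223-3p (adjusted p = 0.881 for each). The columns of the slide held 1 treatment each, so column and treatment cannot be told apart.

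**Figure D3:**
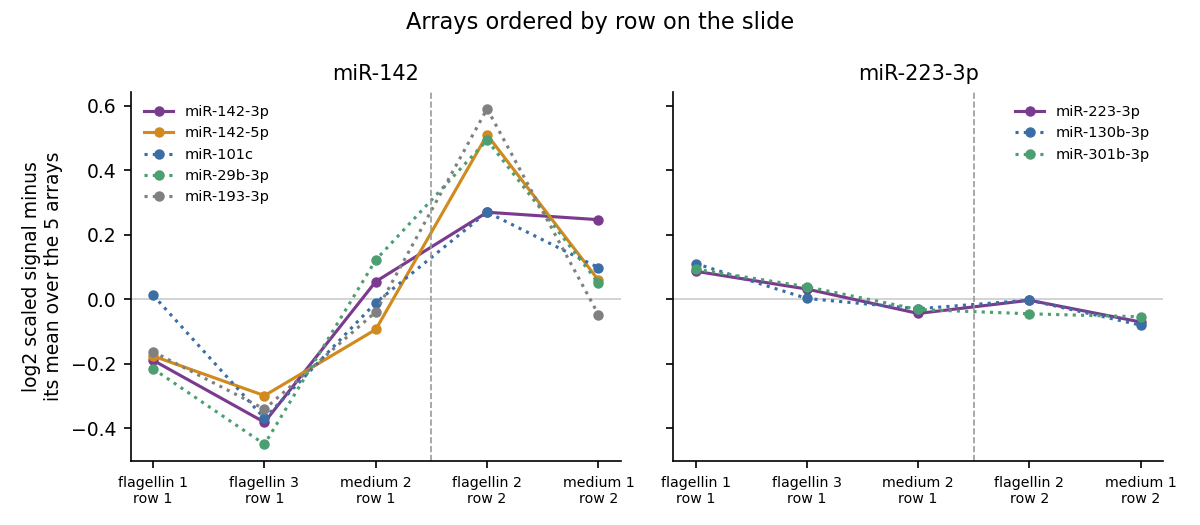
Log2 scaled signal of each miRNA minus its own mean over the 5 arrays, with arrays ordered by slide row (dashed line between row 1 and row 2); solid lines are the arms of miR-142 (left) and miR-223-3p (right), dotted lines the miRNAs with the most similar profiles. Both arms of miR-142 are lowest on flagellin replicate 3 and highest on flagellin replicate 2, and miR-223-3p is nearly level on the same scale.

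The arms of 1 hairpin are read on the same array, so the scale of the array cancels from their ratio. The miR-142-3p signal was 2.91, 2.48 and 2.77 times the miR-142-5p signal in the flagellin replicates and 3.34 and 3.25 times in the medium replicates. All 3 flagellin ratios lay below both medium ratios, which was so for 3 (9.38%) of the 32 hairpins with both arms detected on every array, while 3 others had all flagellin ratios above. On the log2 scale the means were 1.44 ± 0.12 (SD, n = 3) and 1.72 ± 0.027 (SD, n = 2). Their difference of −0.28 had p = 0.1 in an exact two-sided permutation test, the smallest p that these arrays allow. The difference was −0.20 in row 1 and −0.43 in row 2, and it kept its sign with each array left out. The SD of the ratio over the 5 arrays, 0.17 on the log2 scale, was near the median of 0.16 over the 32 hairpins. Because the probes of the arms differ, the size of the ratio does not give the ratio of molecules. The ratio between the longer and shorter probe of miR-142-3p alone also varied between arrays, from 2.92 to 3.61.

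**Figure D4:**
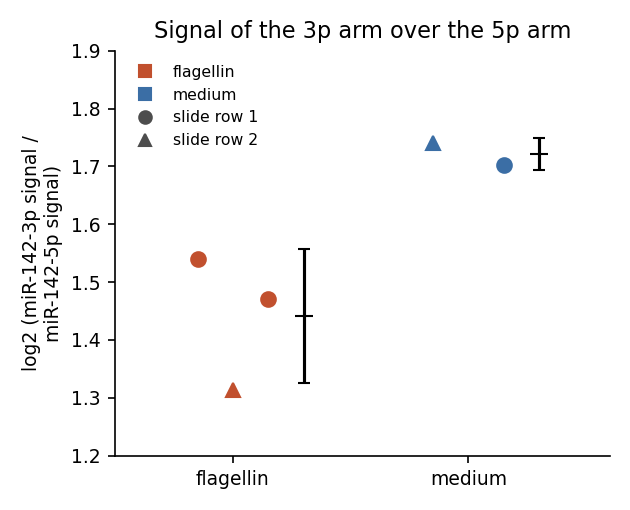
Log2 of the miR-142-3p signal over the miR-142-5p signal on each array (triangles, slide row 2; circles, slide row 1; black bars, mean and SD of a group). The flagellin arrays lie between 1.31 and 1.54 and the medium arrays at 1.70 and 1.74.

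For miR-223 the 5p arm, the strand usually discarded, gave no measured level. Its 3 probes, of 15, 16 and 17 nt, covered 40 spots on each array, of which 0 were well above background. The highest probe signal on any array was 0.249 units and the lowest −1.13 units. A probe counts as detected above 3 times its error, and 3 times the largest error of these probes was 3.07 to 3.75 units. The miR-223-3p signal was 777 to 1016 times that limit, but its probes are longer, so this is no ratio of molecules. Detection of a single arm was common. Among 409 pairs of arms on the array, 111 had 1 arm detected on all arrays and the other on none, 54 of them with the 3p arm. By mean signal miR-223-3p was at place 5 among these 111.

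Each detected arm was read by a pair of probes that differ by 1 terminal base. The 21 nt probe of miR-223-3p gave 2693, 2619 and 1925 units in the flagellin replicates and 2392 and 2114 units in the medium replicates. Its 20 nt probe gave 771, 774 and 574 units with flagellin and 726 and 656 units with medium, so the extra base went with 3.22 to 3.49 times the signal. For miR-142-3p the 23 nt probe gave 2.92 to 3.61 times the signal of the 22 nt probe, while for miR-142-5p the 19 nt and 18 nt probes were about equally bright, at 0.935 to 1.07.

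The probes of an arm shared some of its pattern over the arrays and not all of it. Both probes of each miR-142 arm were brighter, after scaling, on the row 2 arrays than on every row 1 array. The 22 nt probe of miR-142-3p was lowest on flagellin replicate 1 (0.29) and highest on medium replicate 1 (0.95), and the 23 nt probe lowest on flagellin replicate 3 (1.88) and highest on flagellin replicate 2 (2.55). The 20 nt probe of miR-223-3p overlapped between the groups and the 21 nt probe did not. For miR-223-3p, flagellin minus medium on the log2 scale was 0.11 for the 21 nt probe (exact two-sided permutation test, p = 0.1) and 0.046 for the 20 nt probe (exact test, p = 0.3). Only the 21 nt probe had all flagellin values above both medium values, as 12.9% of the 533 probes detected on all arrays did. The ratio of the 21 nt to the 20 nt signal was also higher on all 3 flagellin arrays, which held for 19.4% of the 222 miRNAs that could be compared in this way. For miR-142-3p the difference was −0.23 with the 23 nt and −0.32 with the 22 nt probe, and for miR-142-5p 0.067 with the 19 nt and −0.0092 with the 18 nt probe (exact permutation p = 0.3 to 1).

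Repeated spots of a probe also scattered, though the probe signal averages them and so varies less than a single spot. Each of these probes had 20 spots on an array, and the coefficient of variation of the spots was 3.45% to 14.7% for miR-223-3p, 4.22% to 17.5% for miR-142-5p and 5.67% to 31.1% for miR-142-3p. The highest value belonged to the 22 nt probe of miR-142-3p on medium replicate 2. The miR-142 probes are poor in G and C, and the part of this in their scatter was not tested. Their mean G+C content was 35.6% for miR-142-3p and 32.5% for miR-142-5p, the 14th and the 5th lowest of the 277 miRNAs, against a median of 51.5%, and it was 41.4% for miR-223-3p.

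The miRNAs with the most similar profiles were found as those with the smallest root-mean-square difference of centred log2 values over the 5 arrays, among 276 candidates. For miR-223-3p these were miR-130b-3p at 0.0186 and miR-301b-3p at 0.0213, against a median of 0.131. For miR-142-3p they were miR-101c at 0.116 and miR-29b-3p at 0.14, against a median of 0.304, and miR-142-5p, the other arm, was at place 4 with 0.156. For miR-142-5p they were miR-193-3p at 0.0676 and miR-29b-3p at 0.119, against a median of 0.331. miR-223-3p was at place 120 of the 276 with 0.294 from miR-142-3p and at place 91 with 0.304 from miR-142-5p. Ranked from miR-223-3p, whose distances have a median of 0.131, the same pairs put miR-142-3p at place 248 and miR-142-5p at place 250 of 276. miR-29b-3p, the miRNA close to both arms of miR-142, had values of 2.04, 2.75 and 1.81 with flagellin and 2.31 and 2.38 with medium, again with flagellin replicate 2 high and flagellin replicate 3 low.

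Other miRNAs of blood-forming and myeloid cells place these values in the context of the leukocyte programme. Of a list of 20, all were on the array and 19 were detected on all 5 arrays, while miR-150-5p, a lymphocyte miRNA, was detected on 0. miR-21-5p, an abundant miRNA of activated leukocytes, had the highest mean signal of all mouse miRNAs, and 8 of the 19 stood above miR-223-3p. None of the 19 passed an adjusted p of 0.05 with limma over the 307 miRNAs, and 2 passed an unadjusted one, beside the 5.86% of all miRNAs given above. The unadjusted number was also 2 with the methods' t-test, but 1 with quantile normalization and 0 with no scaling. With limma and the main scaling these were miR-155-5p, which is induced through NF-κB, with a log2 fold change of 0.35 (95% interval 0.10 to 0.61, limma's adjusted p = 0.65), and also miR-146a-5p, which dampens Toll-like receptor signalling, with 0.28 (95% interval 0.058 to 0.51, adjusted p = 0.65). The flagellin values lay above both medium values for 5 of the 19, miR-16-5p, miR-24-3p, miR-146a-5p, miR-155-5p and miR-652-3p, against the 11.4% of all miRNAs given above. The list was chosen with earlier results of these data known, so these counts are a description and not a test. The fold change was above 0 for 15 of the 19, beside 51.8% of all 307. It was above 0 for 12 of the 19 with quantile normalization, beside 56% of all, and for 19 with the 75th percentile taken over all mouse miRNAs, beside 80.1% of all. The median over the 19 was 0.096, beside 0.0095 over all 307, and with quantile normalization it was 0.017 beside 0.02. The value of miR-223-3p, 0.096, was thus at the middle of this list with the main scaling. With quantile normalization it was −0.048, below the list's median of 0.017.

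**Figure D5:**
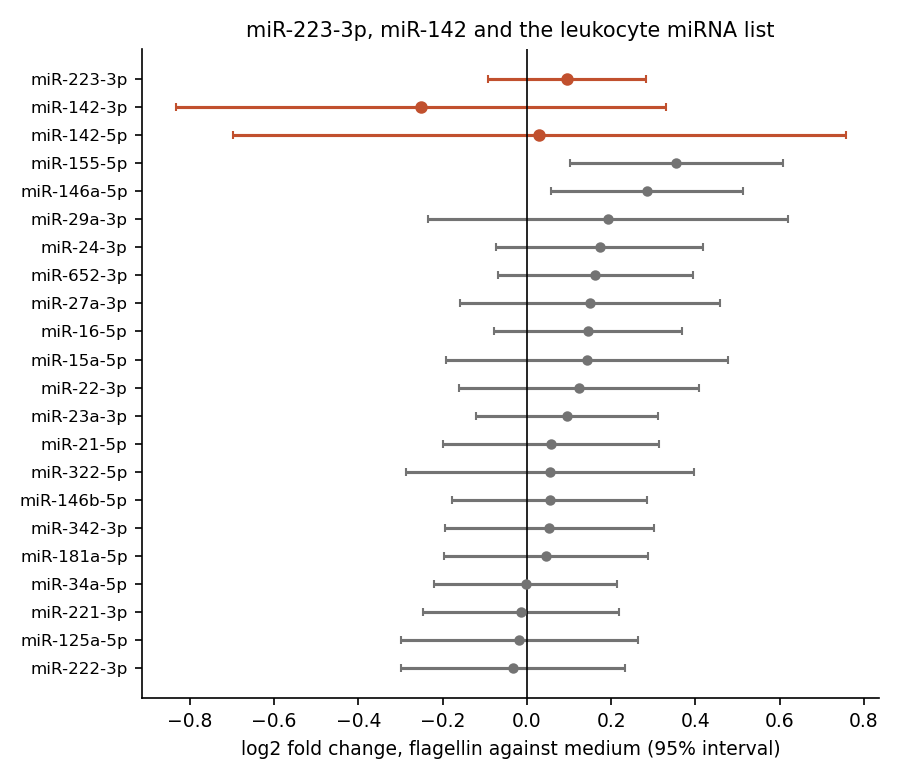
Log2 fold change of flagellin against medium with its 95% interval (limma) for miR-223-3p and both arms of miR-142 (red) and the 19 tested miRNAs of the leukocyte list (grey), ordered by value. The intervals of the red points include 0, those of miR-142 are the widest shown, and the miR-223-3p value of 0.096 becomes −0.048 with quantile normalization.

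The labelled cell type, dendritic cells of the myeloid lineage, was set against markers of other cells. Of 19 miRNAs that mark lymphocytes, erythroid cells, endothelium and platelets, stroma, epithelium, liver, striated muscle or neurons, 14 were detected on 0 of the arrays and 2 on all 5. Those at 0 included miR-150-5p of lymphocytes, miR-122-5p of liver, miR-124-3p and miR-9-5p of neurons and miR-144-3p of erythroid cells. Also at 0 were miR-214-3p, miR-143-3p and miR-145-5p of stroma and muscle, and miR-1a-3p and miR-133a-3p of striated muscle. The detected signal of the 19 summed to 45.1, 106 and 20.4 units in flagellin replicates 1, 2 and 3 and to 42.5 and 20.4 units in the medium replicates, at most 0.0454% of the mouse total. The most abundant on average was miR-206-3p, the only marker of striated muscle detected, at 14.8 to 19.1 units. The sum was highest on flagellin replicate 2, the array on which both arms of miR-142 were highest after scaling. There miR-199a-3p, the only marker of stroma and muscle detected, gave 41.3 units (at most 5.59 elsewhere). On that array miR-126-3p of endothelium and platelets gave 29.1 units (at most 12.6 elsewhere). miR-451 of erythroid cells gave 17 units there (at most 5.29 elsewhere). Flagellin replicate 1 and medium replicate 1 had similar sums, 45.1 and 42.5 units, with miR-142-3p at 2.50 and 2.93 after scaling. The part of these cells in the miR-142 values was not tested. The paper reports that red blood cells of the marrow were lysed before the culture, and that CD11c+ cells were sorted before the treatment.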

How the data were processed

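Total RNA of 3 flagellin and 2 medium samples was read on Agilent mouse miRNA arrays (release 18 design), and the authors extracted the deposited spot intensities and total gene signals with Agilent Feature Extraction (10.7.3.1 in the file headers), which subtracts background, averages spots, sums detected probes and sets undetected miRNAs to 0.1. The deposited table of values holds log2 total gene signals that the authors shifted by a constant for each array, and it served as an alternative. The members and lists were chosen with earlier results of these data known. Each total gene signal was scaled to the 75th percentile of its array, taken over the 277 mouse miRNAs that every array detected (211 to 293 units), floored at the common value 0.0121 and put on the log2 scale. The 307 miRNAs detected on at least 2 arrays were fitted with limma (3.58.1, R 4.3.3), with Benjamini-Hochberg adjustment and 3 residual degrees of freedom. The fit was tested on simulated data. Arm ratios, shares and probes were compared by exact two-sided permutation over the 10 splits. Named miRNAs were the members, any with a member's seed, the leukocyte list, neighbours in signal order and the 2 nearest profiles of each detected member, with the cell type markers. Alternatives covered scaling, floor, filter, test, probe level, blocks for replicate number and array row, and each array left out. The number of arrays limits the precision.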

Additional observations from a re-analysis of the deposited data

How the results depend on the processing

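The adjusted p of miR-223-3p, miR-142-3p and miR-142-5p stayed above 0.05 under all 18 alternatives run for each (limma, apart from the methods' t-test), at 0.379 to 1, 0.559 to 1 and 0.684 to 1. The log2 fold change of miR-142-3p stayed negative, from −0.44 to −0.071, while miR-223-3p ran from −0.048 to 0.28 and miR-142-5p from −0.22 to 0.21. The floor, filter, t-test and trend settings cannot change these fold changes, only their tests, and the replicate block gives the same fold changes as leaving out flagellin replicate 3. That of miR-223-3p, 0.096, reversed with quantile normalization (−0.048), and that of miR-142-5p, 0.029, with processed signals at the probe level (−0.0078), without flagellin replicate 2 (−0.22) or medium replicate 2 (−0.048). The cause was not tested. With each array left out, the ranges were 0.072 to 0.12 for miR-223-3p, −0.44 to −0.11 for miR-142-3p and −0.22 to 0.18 for miR-142-5p. A lone remaining medium array was assumed to have the spread of the flagellin arrays. Scaling to the 75th percentile over all mouse miRNAs moved the median of all tested miRNAs to 0.19 and the values to 0.28 for miR-223-3p, −0.071 for miR-142-3p and 0.21 for miR-142-5p. Relative to that median they were 0.089 for miR-223-3p, −0.26 for miR-142-3p and 0.022 for miR-142-5p.

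The miR-142 arm difference of −0.28 kept its sign in all 7 alternatives, −0.33 to −0.22 with each array left out. The share of miR-142-5p, 0.0144 percentage points higher with flagellin, reversed when flagellin replicate 2 (−0.042) or medium replicate 2 (−0.00167) was left out, with leave-one-out values up to 0.0498. The shares of miR-223-3p (0.0594 to 0.12 with each array left out) and miR-142-3p (−0.239 to −0.0409) kept their signs. Probes were not compared with arrays left out. With no scaling and with the median of the spots their differences kept their signs, that of the 20 nt miR-223-3p probe going from 0.046 to 0.020 and 0.025 and that of the 18 nt miR-142-5p probe from −0.0092 to −0.035 and −0.017. Mean ranks among the miRNAs detected on all arrays were identical, as leaving out dim miRNAs can hardly move them.

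Of the 307 miRNAs, limma passed 2 at an adjusted p of 0.05. That number became 4 when the authors' values or a floor divided by 10 were used, and 1 when the test took the miRNAs that every array detected, no filter or limma's trend option. The methods' t-test also gave 2. No miRNA passed (0) under quantile normalization, no scaling, the percentile over all mouse miRNAs, the replicate block or the array row block, for which 17, 8, 14, 39 and 15 passed unadjusted. Leave-one-out counts ran from 0 to 1, the 1 when flagellin replicate 3 was dropped, with 7 to 71 unadjusted. With replicate number as a block, which leaves out flagellin replicate 3 as unpaired, the log2 fold changes were 0.099 for miR-223-3p, −0.11 for miR-142-3p and 0.18 for miR-142-5p, and it changed no call for them. Same-numbered samples deviated from their group means with correlations of 0.0469 and 0.00728 across 307 miRNAs, so the samples were taken to share only a number. The arms detected here were well above background, so probe signal limits only miR-223-5p.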
